A study of Mus musculus with 4 samples.

Results

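The 8 genes described here encode glutathione-handling enzymes, metallothioneins and a small intestinal epithelial protein: Gstm1, Gstm2, Gstm3, Mgst1, Gpx2, Mt1, Mt2 and Phgr1. They were picked by name because they led a group of cells with little Chgb RNA, and all 8 are among the 29161 genes of the count table. Their levels were followed in cells grouped by Chgb, the gene of the granule protein chromogranin B. The unit is CPM, a gene's counts scaled to a total of 1000000. Chgb-low cells had under 2000 CPM of Chgb and Chgb-high cells 10000 CPM or more. Cells with 5 or more counts of Neurog3, the transcription factor that starts the enteroendocrine fate, were followed as Neurog3-positive cells, whatever their Chgb level. Because the choice of genes rests on the levels in these cells, the comparisons between the cell groups are given as descriptions without a test. The comparison of jejunum with duodenum was not part of the choice and was tested.

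The study sequenced RNA of single live cells carrying the eYFP reporter, sorted 1 per well from dissociated enteroids, which are small intestinal epithelial cultures grown from crypts. All cells came from female CD1 mice with 1 Neurog3eYFP reporter allele, so every group shares that allele. The sort selects cells that hold the fluorescent protein, whether from present or from earlier Neurog3 expression. The culture medium of all plates held N-acetyl-L-cysteine, a cysteine source for glutathione, together with R-spondin-1, EGF and Noggin. Duodenum replicate 1 came from a 39 week old mouse, and duodenum replicates 2 and 3 and jejunum replicate 1 from 12 week old mice. Each of these 4 replicates is 1 plate of wells, and the labels do not say whether the 12 week plates are separate animals, so spreads and p-values measure differences between plates.

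The table holds 290 cells: 72, 83 and 72 in duodenum replicates 1, 2 and 3 and 63 in jejunum replicate 1, the order in which plate values are given throughout. Of these cells, 139 were Chgb-low (44, 37, 39 and 19 per plate), 129 were Chgb-high (26, 39, 27 and 37) and 22 lay between. Neurog3-positive cells numbered 50 (7, 12, 24 and 7), of which 24 were Chgb-low and 22 Chgb-high. Few cells lay near the Chgb limits: 12 cells had 1000 to under 2000 CPM and 12 had 2000 to under 5000 CPM, while 10 had 5000 to under 10000 CPM and 21 had 10000 to under 20000 CPM. At the Neurog3 limit, 3 cells had 3 or 4 counts and 6 cells had 5 to 9.

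Glutathione transferases join the tripeptide glutathione to reactive compounds, and glutathione peroxidases use it to reduce peroxides. Metallothioneins are small cysteine-rich proteins that bind zinc and copper, and their genes are switched on by the zinc-sensing factor MTF1 through short metal response elements. In the small intestine these proteins belong to the epithelium's defence against food-borne compounds, metals and oxidants.

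Several of the 8 genes are neighbours in the genome (GRCm38, GENCODE M21). Gstm3 (chr3:107963696-107969283), Gstm2 (chr3:107981702-107986453) and Gstm1 (chr3:108012255-108017973) lie in a row on the minus strand, with 12418 bases between the first pair and 25801 between the second. Mt2 (chr8:94172664-94173568) and Mt1 (chr8:94179082-94180327) lie 5513 bases apart on the plus strand. Mgst1 is at chr6:138140316-138156755 and Phgr1 at chr2:118772769-118778165, both on the plus strand, and Gpx2 is at chr12:76792333-76795554 on the minus strand.

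The sequences around the starts of Mt2 and Mt1 are shown because these neighbours had the most similar levels from cell to cell of any pair among the 8 genes. Each is printed 5′ to 3′ on the plus strand from the RefSeq promoter table (GRCm38.p6), as the 250 bases before the annotated start and the 30 bases from it. Mt2 covers chr8:94172368-94172647 and Mt1 covers chr8:94178839-94179118. Capitals mark the core letters of the metal response element, TGCACNC or TGCGCNC, searched on both strands.
Mt2: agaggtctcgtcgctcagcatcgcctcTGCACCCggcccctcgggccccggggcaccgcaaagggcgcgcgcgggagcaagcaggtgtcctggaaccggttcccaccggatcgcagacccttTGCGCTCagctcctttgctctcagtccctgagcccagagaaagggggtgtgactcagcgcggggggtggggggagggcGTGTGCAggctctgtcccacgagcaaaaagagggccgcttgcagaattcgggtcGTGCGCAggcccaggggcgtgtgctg
Mt1: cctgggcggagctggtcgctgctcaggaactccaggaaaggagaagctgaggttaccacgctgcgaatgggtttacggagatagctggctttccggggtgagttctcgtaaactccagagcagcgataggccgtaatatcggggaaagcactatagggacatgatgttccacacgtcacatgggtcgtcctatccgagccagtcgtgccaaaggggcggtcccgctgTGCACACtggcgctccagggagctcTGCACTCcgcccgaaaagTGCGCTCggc

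Mt2 held 4 matches, 2 on each strand, and Mt1 held 3, all on the plus strand. Of the 32851 promoters of 300 bases in that table, 25.7% held at least 1 match and 1.97% held 3 or more. Among the other 6 genes, Gstm1 held 1 match, on the minus strand. The core of the antioxidant response element (TGACNNNGC), the site class bound by the stress factor Nrf2, had 1 match each in the promoters of Mt2, Phgr1 and Mgst1, against 12.4% of all promoters with at least 1. No match of one core overlapped a match of the other in these promoters. A match describes the letters only.

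All 8 genes had a higher summed level in Chgb-low than in Chgb-high cells in each of the 4 plates. Of the 12440 genes that passed the filter on low counts, 12.8% were higher in Chgb-low cells in all 4 plates. For Gstm1, Gstm3, Mt1, Mt2 and Phgr1 every plate's Chgb-low value lay above every plate's Chgb-high value, an arrangement found for 4.35% of all genes tested. The plate values of Gstm2, Mgst1 and Gpx2 overlapped between the groups. All 8 genes passed the filter. Levels below are CPM of the counts summed over the cells of a group in a plate.

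Gstm1, a cytosolic mu-class glutathione transferase, stood at 411, 492, 699.8 and 424 CPM in Chgb-low cells. In Chgb-high cells it stood at 60.4, 43.9, 187 and 188 CPM. The groups did not overlap, and the ratio within a plate ran from 2.26 in the jejunum to 11.2 in duodenum replicate 2. The fitted log2 fold change was 2.73 ± 0.44 (SE, 4 plates).

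Gstm2, a second mu-class enzyme, stood at 213, 217, 292 and 19.7 CPM in Chgb-low cells and at 69.2, 68.3, 108 and 3.85 CPM in Chgb-high cells. The jejunum plate was the lowest in both groups, so the plate ranges overlapped although each plate's own ratio lay between 2.70 and 5.13. Its fitted log2 fold change was 2.16 ± 0.24 (SE, 4 plates).

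Gstm3, the third mu-class enzyme, stood at 75.7, 149, 306 and 96.9 CPM in Chgb-low cells. In Chgb-high cells it stood at 0.316, 38.9, 43.5 and 37.3 CPM, so duodenum replicate 1 was far below the other plates there, with 3 counts in all. Leaving that plate's ratio aside, the ratio ran from 2.60 to 7.04. The fitted log2 fold change over all plates was 3.35 ± 1.02 (SE, 4 plates). It was 2.39 without duodenum replicate 1 and 4.04 without the jejunum.

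Mgst1, a membrane-bound enzyme of a separate transferase family, was the least often detected. It stood at 20.1, 75.1, 45.0 and 14.4 CPM in Chgb-low cells and at 0.105, 6.44, 18.7 and 13.5 CPM in Chgb-high cells. In the jejunum the groups were nearly level, with a ratio of 1.07, and in duodenum replicate 1 the Chgb-high value rested on 1 count. The fitted log2 fold change was 3.07 ± 1.34 (SE, 4 plates). It was 1.96 without duodenum replicate 1, 3.78 without duodenum replicate 3 and 4.07 without the jejunum.

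Gpx2, the glutathione peroxidase of the gut epithelium, was present in both groups. It stood at 1466, 906, 1130.35 and 684 CPM in Chgb-low cells and at 702, 455, 481 and 522 CPM in Chgb-high cells. Its ratio, between 1.31 and 2.35, was the smallest of the 8 genes in 3 plates, and the fitted log2 fold change was 1.32 ± 0.23 (SE, 4 plates). The lowest Chgb-low plate, the jejunum, fell within the Chgb-high range.

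Mt1, a metallothionein, stood at 1169.7, 2577, 1271 and 2695 CPM in Chgb-low cells. In Chgb-high cells it stood at 227, 265, 446 and 506 CPM. The groups were apart, with plate ratios from 2.85 to 9.74 and a fitted log2 fold change of 2.78 ± 0.30 (SE, 4 plates).

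Mt2, its neighbour and a metallothionein as well, stood at 628, 1091, 386 and 1119 CPM in Chgb-low cells and at 183, 101, 132 and 130.0 CPM in Chgb-high cells. As for Mt1, the groups were apart and the smallest ratio, 2.93, was that of duodenum replicate 3. The largest was 10.8, and the fitted log2 fold change was 2.86 ± 0.38 (SE, 4 plates).

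Phgr1, an intestinal epithelial gene rich in proline, histidine and glycine codons, stood at 403, 661, 792 and 198 CPM in Chgb-low cells. Its Chgb-high values were 25.1, 64.6, 126 and 93.0 CPM. The groups were apart, with the widest span of ratios among the 6 genes that had more than 3 counts in both groups of every plate, from 2.13 in the jejunum to 16.1 in duodenum replicate 1, and a fitted log2 fold change of 3.21 ± 0.54 (SE, 4 plates).

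**Figure D1:**
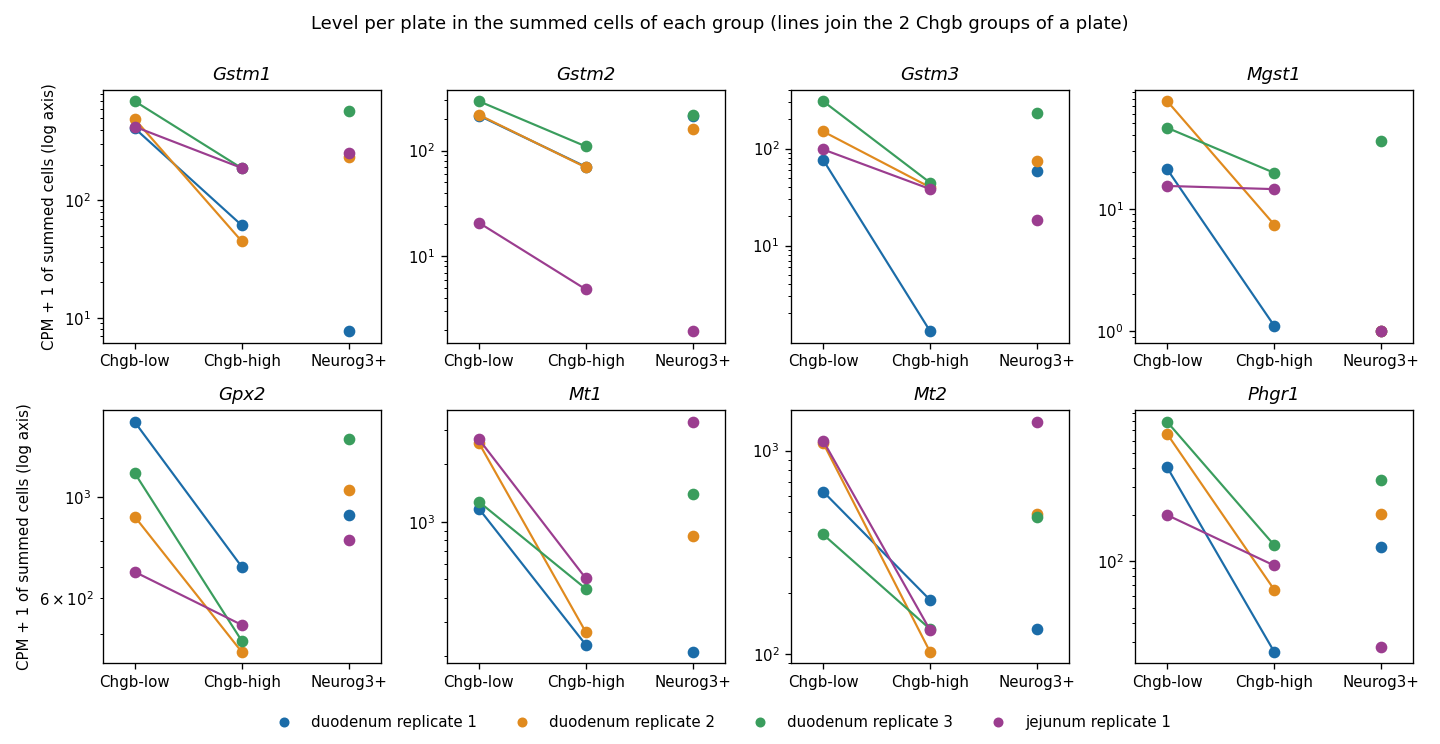
Level of each gene (CPM + 1 of the summed cells, log axis) in Chgb-low, Chgb-high and Neurog3-positive cells, with 1 point per plate and lines joining the Chgb groups of a plate; Neurog3-positive cells can also belong to a Chgb group. Every line falls from Chgb-low to Chgb-high, by ratios of 1.07 (Mgst1, jejunum) to 16.1 (Phgr1, duodenum replicate 1), leaving aside Gstm3 and Mgst1 in duodenum replicate 1, where the Chgb-high value rests on 3 counts and 1 count.

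These fold changes are on the scale of the between-library normalization, which put the median of all genes tested at -0.04 (log2). On plain CPM totals that median was -0.36, and the mean log2 ratio of CPM + 1 over the 4 plates was 0.92 ± 0.37 (SD) for Gpx2 and 2.32 ± 1.00 (SD) for Gstm1. All 8 genes were above 0 on either scale.

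Other measures moved with the same grouping, and their part in these differences was not tested. Ribosomal protein genes took a median of 26.6% of a cell's counts in Chgb-low cells and 8.50% in Chgb-high cells, and mitochondrial genes 7.47% and 3.99%. Median depth was 374867 counts per Chgb-low cell and 467824 per Chgb-high cell. The summed goblet markers (all 13 listed are in the table) stood at 18749 to 27214 CPM over the plates in Chgb-low cells and 1092 to 1866 CPM in Chgb-high cells, and the 13 Paneth markers at 3214 to 13785 and 303 to 1139 CPM. In the Chgb-low sums, 0 to 4 goblet and 1 to 2 Paneth markers were at 0 in a plate.

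Hormone and granin genes differed in how they followed Chgb. Without Chgb, which defines the groups, the other 9 enterochromaffin markers summed to 592 to 2545 CPM in Chgb-low and 8399 to 22706 CPM in Chgb-high cells. The 10 peptide hormone genes summed to 306 to 7810 CPM in Chgb-low and 437 to 37626 CPM in Chgb-high cells, so the plate ranges overlapped. Ghrl, the gene of the hormone ghrelin, stood at 512, 1767, 17.2 and 5487 CPM in Chgb-low cells and at 2.21, 226, 1599 and 74.4 CPM in Chgb-high cells. It was higher in Chgb-low cells in 3 of the 4 plates and was named after its values were seen. Single cells carried much of these Ghrl sums. In Chgb-low cells 1 cell held 91.0% of the counts in duodenum replicate 1 and 83.9% in the jejunum. In Chgb-high cells of duodenum replicate 3, 1 cell held 98.3%. Of the 7 peptide hormone genes tested, only 1 had a log2 fold change above 0, and 3 were lower in Chgb-low cells (edgeR adjusted p under 0.05). For 1 of these 3 genes, 1 cell held 99.2% of the counts of Chgb-high cells in duodenum replicate 3. That gene had no count in either group of duodenum replicate 1. Non-epithelial markers reached at most 23.8 CPM and tuft markers at most 1.76 CPM in Chgb-low cells. In Chgb-high cells they stood at 682 to 2080 and 4.99 to 9.72 CPM. Endocrine progenitor markers summed to 1555 to 2146 CPM in Chgb-low and 1005 to 1688 CPM in Chgb-high cells. In the same order, enterocyte markers summed to 967 to 1822 and 541 to 2354 CPM. Stem and transit amplifying markers summed to 314 to 603 and 316 to 625 CPM. Chgb itself had at least 64.6 CPM in every one of the 139 Chgb-low cells. Whether such low counts are the cell's own RNA was not tested.

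The share of cells in which a gene was detected depended on the count required. At 1 count or more, Gstm1 was detected in 90.6% of Chgb-low cells (95% exact Clopper-Pearson interval 84.5 to 94.9, counting error only) and in 89.9% of Chgb-high cells. By the same measure the shares were 55.4% and 55.8% for Gstm2, 51.1% and 51.2% for Gstm3, and 100% in both groups for Gpx2. Mgst1 differed, with 23.7% (16.9 to 31.7) of Chgb-low and 8.53% (4.33 to 14.7) of Chgb-high cells. With every cell thinned to 100000 counts, Gstm1 was detected in 74.8% of Chgb-low and 61.2% of Chgb-high cells, Gstm2 in 43.2% and 22.5%, Gstm3 in 41.7% and 23.3%, and Phgr1 in 73.4% and 50.4%. With at least 5 counts the shares were 64.0% and 44.2% for Gstm1, 36.7% and 13.2% for Gstm2, 30.9% and 11.6% for Gstm3, and 62.6% and 30.2% for Phgr1. Under both measures these 4 genes, and Mgst1 as well, were detected more often in Chgb-low cells. Mt1 went the other way, detected in 83.45 to 89.93% of Chgb-low and 91.47% of Chgb-high cells over these measures. Mt2 was detected in 76.26 to 83.45% of Chgb-low and 75.97 to 76.74% of Chgb-high cells. Gpx2 was detected in 97.12% of Chgb-low and 96.12 to 99.22% of Chgb-high cells.

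At 100 CPM or more the shares stood apart. Gstm1 reached that level in 82 of 139 Chgb-low cells (59.0%) and in 32 of 129 Chgb-high cells (24.8%), with medians of 264 and 7.44 CPM per cell. Phgr1 reached it in 55.4% and 17.1%, and Mt2 in 57.6% and 20.9%. Gstm2 reached it in 30.9% and 10.1%, Gstm3 in 29.5% and 9.30%, and Mgst1 in 10.8% and 3.88% of the cells. Mt1 was at this level in 67.6% and 50.4%.

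Gpx2 was the exception among the 8 genes, at 100 CPM or more in 86.3% of Chgb-low and 85.3% of Chgb-high cells, with medians of 879 and 451 CPM. Single cells carried much of some sums. The highest Mt1 level was 13547.5 CPM, in a Chgb-low cell of duodenum replicate 2, and in the jejunum 1 cell held 69.3% of the Gstm2 counts of Chgb-low cells.

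**Figure D2:**
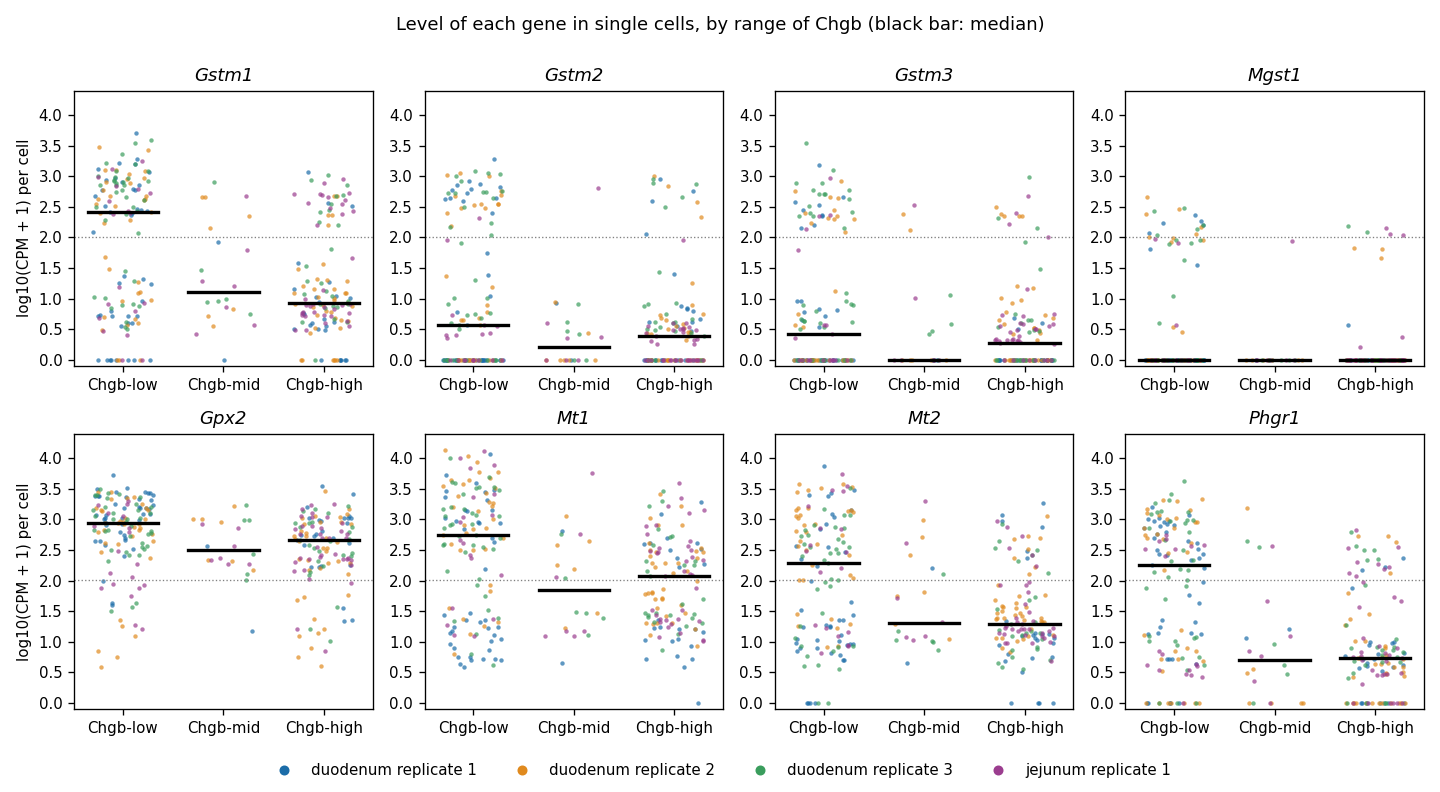
Level of each gene in single cells (log10 of CPM + 1) for the 139 Chgb-low, 22 intermediate and 129 Chgb-high cells, coloured by plate, with the median as a black bar and a dotted line at 100 CPM. Gstm1 has a median of 264 CPM in Chgb-low and 7.44 CPM in Chgb-high cells, while most Gpx2 values lie above the line in both groups.

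The 22 cells between the Chgb limits were few in each plate (2, 7, 6 and 7) and their values varied. Gstm1 stood at 40.1, 179, 104 and 88.2 CPM in them, below every Chgb-low plate value. Gpx2 stood at 186, 670, 585 and 398 CPM, and Mt1 at 310, 272, 136 and 1315 CPM, so both overlapped the Chgb-high range.

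Counted per cell, at least 4 of the 8 genes reached 100 CPM in 80 of 139 Chgb-low cells (57.6%) and in 21 of 129 Chgb-high cells (16.3%). At least 1 of the 4 transferases reached it in 101 of the Chgb-low and 49 of the Chgb-high cells, and both metallothioneins did in 74 and 21. All 8 genes were at that level together in 5 Chgb-low cells and 1 Chgb-high cell. These counts also follow from how often each gene alone reached 100 CPM, so they do not show joint expression.

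The cell-to-cell relation between levels was weak for most pairs. Within a plate, Mt1 and Mt2 had Spearman correlations of 0.62, 0.78, 0.72 and 0.63 over all its cells (mean 0.69) and a mean of 0.77 over Chgb-low cells. In Chgb-high cells the mean for this pair was 0.47. No other pair had a mean above 0.40 in Chgb-low cells, the value of Gstm2 with Phgr1, or above 0.32 over all cells. Cells of a plate share a library, and depth differs between them.

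**Figure D3:**
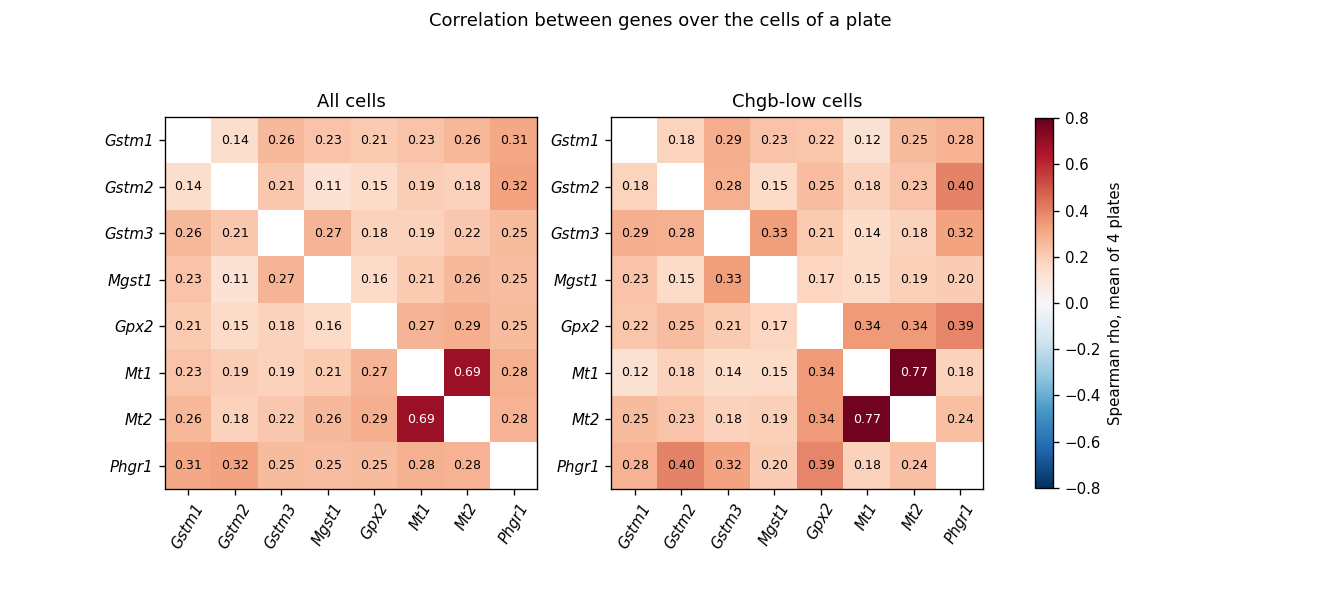
Spearman correlation between each pair of the 8 genes over the cells of a plate, as the mean of the 4 plates, for all cells and for Chgb-low cells. Mt1 with Mt2 is the darkest square, at 0.69 and 0.77, and all other pairs lie between 0.11 and 0.40.

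The genes most like the mean of the 8 over single cells were mainly ribosomal protein genes. Among 4392 other genes at 20 CPM or more on average in every plate, Rpl13 had the highest mean within-plate Spearman correlation, 0.60, followed by Rps2 (0.59), Rpsa (0.59), Rps29 (0.58), the predicted gene Gm14303 (0.57), Rplp1 (0.57), Rps19 (0.57) and Rps12 (0.57). These values describe likeness over the 63 to 83 cells of each of the 4 plates, which share the grouping and the ribosomal shares given above.

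Within the Chgb-low cells, 81 were rich in goblet and Paneth RNA (10000 CPM or more summed over those markers) and 58 were not, against 4 of 129 Chgb-high cells. Gpx2, Gstm2 and Phgr1 were higher in the rich cells in 4 of 4 plates, with ratios of 1.20 to 3.06, 1.16 to 3.90 and 1.17 to 11.4. Phgr1 stood at 524, 702, 925 and 283 CPM in the rich cells and at 83.4, 602, 672 and 24.9 CPM in the others. Gstm3 and Mgst1 were instead higher in the marker-poor cells in 3 of 4 plates, and Gstm1, Mt1 and Mt2 were split, 2 plates each way.

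The marker-poor Chgb-low cells still held more goblet RNA than Chgb-high cells, at 2553 to 4189 against 1092 to 1866 CPM over the plates. Their Paneth markers stood at 488 to 1933 CPM, which overlapped the 303 to 1139 CPM of Chgb-high cells. Setting aside all marker-rich cells left every one of the 8 genes higher in Chgb-low cells. The fitted log2 fold changes were then 2.34 for Gstm1, 3.09 for Gstm3, 3.18 for Mgst1, 2.46 for Mt1 and 2.64 for Mt2. They were 1.46 for Gstm2, 1.92 for Phgr1 and 0.67 for Gpx2. All but that of Mgst1 were smaller than with all cells, and the median over all genes tested was -0.46 in this fit against -0.04 with all cells. At least 4 of the 8 genes reached 100 CPM in 57 of the 81 rich cells (70.4%) and in 23 of the 58 others (39.7%).

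Neurog3-positive cells were set against the 115 other Chgb-low cells and, separately, against the 107 other Chgb-high cells, so the comparisons share the 50 Neurog3-positive cells. Of these 50 cells, 24 were Chgb-low and 22 Chgb-high, so both comparisons also carry a difference in Chgb, whose part was not tested. All 8 genes passed the filter in both. Over all genes tested the median log2 fold change was -0.46 against the other Chgb-low cells and -0.41 against the other Chgb-high cells.

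Gpx2 was the only gene of the 8 that was higher in all Neurog3-positive cells together than in the other Chgb-high cells in every plate. It stood at 911, 1038, 1342 and 804 CPM in Neurog3-positive cells and at 733, 426, 365 and 483 CPM in the other Chgb-high cells. It was higher in all 4 plates, as were 7.93% of the 10970 genes tested, and the plate values did not overlap, as for 1.53%. The fitted log2 fold change was 1.18 ± 0.30 (SE, 4 plates). In the 22 Neurog3-positive cells that were Chgb-high, Gpx2 ran from 555 to 1016 CPM, which overlapped the other Chgb-high cells. All Neurog3-positive cells together were close in Gpx2 to the other Chgb-low cells, whose plate values ran from 710.3 to 1458 CPM. Gpx2 was higher in the Neurog3-positive cells in 3 of 4 plates, with ratios of 0.62 to 1.43. The fitted log2 fold change was -0.16 ± 0.26 (SE, 4 plates), beside a median of -0.46 over all genes tested.

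Phgr1, Gstm1 and Gstm3 were lower in all Neurog3-positive cells together than in the other Chgb-low cells in all 4 plates, as were 10.9% of the 10783 genes tested. Phgr1 stood at 123, 201, 333 and 27.0 CPM, against a range of 239 to 894 CPM in the other Chgb-low cells, and its log2 fold change was -2.24 ± 0.35 (SE, 4 plates). Gstm1 stood at 6.70, 234, 574 and 252 CPM, against 439 to 663 CPM. The value of duodenum replicate 1, from 17 counts in 7 cells, lay far below the other plates. Gstm3 stood at 57.9, 73.5, 229 and 17.2 CPM, against 69.6 to 302 CPM. In the 24 Neurog3-positive cells that were Chgb-low, plate values ran from 4.65 to 517 CPM for Phgr1. They ran from 2.26 to 797 CPM for Gstm1 and from 0.516 to 319 CPM for Gstm3. All of these ranges overlapped those of the other Chgb-low cells, and the highest Gstm1 and Gstm3 values lay above them.

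Mgst1 was lower in all Neurog3-positive cells together than in the other Chgb-low cells in all 4 plates too. It had no count in 3 of the plates and stood at 35.2 CPM in duodenum replicate 3. There, the Neurog3-positive cells that were Chgb-low stood at 58.5 CPM, above the 40.0 CPM of the other Chgb-low cells. At 3 counts of the total, a count of 0 allows up to 1.18, 0.580 and 0.716 CPM in those plates (duodenum replicates 1 and 2 and the jejunum), and no fold is given. Gstm2 stood at 211, 160.4, 216 and 0.955 CPM in Neurog3-positive cells, again lowest in the jejunum, and its plates went both ways against the other Chgb-low cells.

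The metallothioneins also differed widely between the plates of Neurog3-positive cells. Mt1 stood at 209, 837, 1389 and 3315 CPM and Mt2 at 132, 489, 472 and 1381 CPM, so the jejunum was highest and duodenum replicate 1 lowest for both. Their log2 fold changes against the other Chgb-low cells were -0.92 ± 0.69 and -0.65 ± 0.65 (SE, 4 plates), with 2 plates in each direction.

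The Neurog3-positive cells were also split by Chgb. In the 24 Neurog3-positive cells that were Chgb-low, Mt1 stood at 495, 1661, 2228 and 6777 CPM, and in the 22 that were Chgb-high at 55.1, 285, 132 and 335 CPM. Mt2 stood at 364, 889, 743 and 2883 CPM and at 7.26, 119, 72.0 and 88.4 CPM. The ranges of both were apart, as for 2.27% of the 12440 genes tested between the Chgb groups, while those of the other 6 genes overlapped. The plates held only 3 to 13 cells per subset.

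The count of genes per cell followed Chgb as well. At least 4 of the 8 genes reached 100 CPM in 17 of the 24 Neurog3-positive Chgb-low cells (70.8%) and in 63 of the 115 other Chgb-low cells (54.8%). The same held for 4 of the 22 Neurog3-positive Chgb-high cells (18.2%). Duodenum replicate 3 held 13 of the 24 Neurog3-positive Chgb-low cells. By plate, the shares were 33.3, 80, 84.6 and 33.3% in Neurog3-positive Chgb-low cells. In the other Chgb-low cells they were 46.3, 71.9, 57.7 and 37.5%, so the plates went both ways. In the Neurog3-positive Chgb-high cells they were 0, 20, 22.2 and 25%. Median ribosomal shares in the Neurog3-positive subsets were 27.1% in Chgb-low and 10.7% in Chgb-high cells, and their part in this pattern was not tested.

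**Figure D4:**
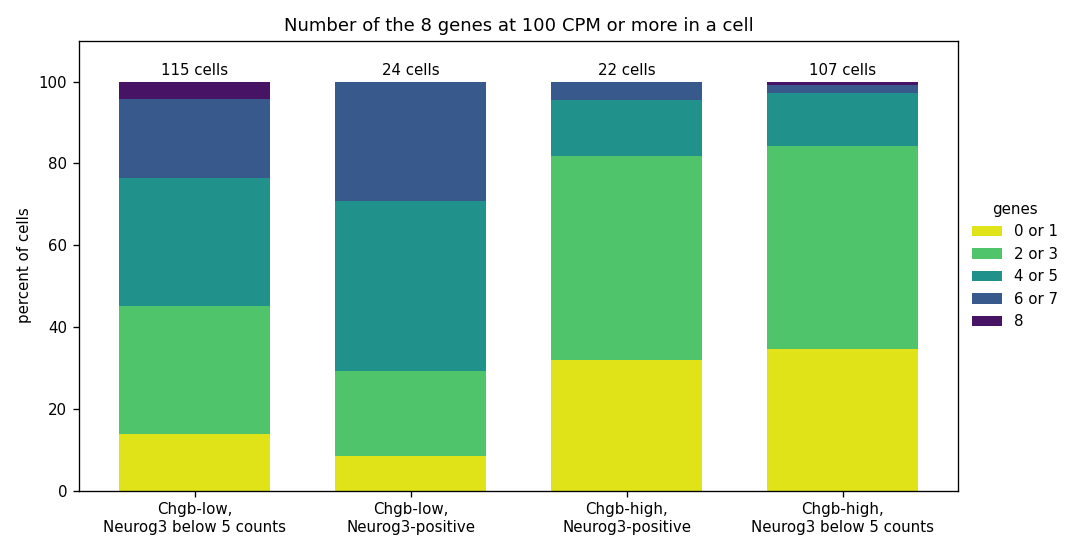
Percent of cells by how many of the 8 genes reached 100 CPM, for Chgb-low and Chgb-high cells with and without 5 counts of Neurog3; the number of cells stands above each bar. Cells with at least 4 of the genes make up 70.8% of the 24 Neurog3-positive Chgb-low cells and 18.2% of the 22 Neurog3-positive Chgb-high cells.

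Jejunum was set against duodenum in Chgb-low cells, a comparison of 1 plate with 3 in which plate and segment cannot be told apart. Gstm2 showed the largest difference of the 8 genes: 19.7 CPM in the jejunum and 213 to 292 CPM in the duodenum plates, a log2 fold change of -3.60 ± 0.73 (SE). In edgeR's quasi-likelihood test with Benjamini-Hochberg adjustment over 15821 genes its p was 0.00137 and its adjusted p 0.420. The same order held in Chgb-high cells, at 3.85 CPM against 68.3 to 108 CPM, and in Neurog3-positive cells, at 0.955 CPM against 160.4 to 216 CPM.

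None of the 8 genes passed the adjusted threshold of 0.05 between segments, and edgeR called 0 of all genes (0%), with 1223 below 0.05 before adjustment. DESeq2 called 1172 genes (7.41%). Phgr1 had a log2 fold change of -1.65 ± 0.695 (SE; adjusted p 0.6345 in edgeR). Mt1 and Mt2 were at 0.71 each, above the median of all genes, -0.53. With DESeq2 the adjusted p of Gstm2 was 8.47e-06, and with edgeR on all genes without the filter on low counts it was 0.0164, while over all alternatives it ran from 8.47e-06 to 0.934.

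The other genes of the same pathways were tested between Chgb-low and Chgb-high cells to place the 8 genes, in a fit in which 4.14% of the 12440 genes passed an adjusted p of 0.05 (317 or 2.55% higher and 198 or 1.59% lower in Chgb-low cells). Most of the pathway genes did not pass. Of the other 22 glutathione transferase genes listed, 18 were tested, none rose and 1 fell, with a median log2 fold change of 0.86 against -0.04 for all genes.

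The transferase that fell was Gstt1, a theta-class enzyme. It stood at 19.5, 42.1, 40.1 and 22.7 CPM in Chgb-low cells and at 554, 1041, 479 and 1126 CPM in Chgb-high cells. Every Chgb-high plate was above every Chgb-low plate, the reverse of Gstm1 and Gstm3, with a log2 fold change of -4.28 ± 0.43 (SE; edgeR adjusted p 0.00868). The call was lost when duodenum replicate 1 or 2 was left out, with adjusted p values from 7.70e-29 to 0.0686 over 14 alternatives.

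Among 17 tested peroxidases, peroxiredoxins, thioredoxins and superoxide dismutases, 3 rose and 1 fell. Prdx2, a cytosolic peroxiredoxin, stood at 468, 1150.0, 621 and 999 CPM in Chgb-low cells and at 186, 365, 414 and 299 CPM in Chgb-high cells, a log2 fold change of 1.72 ± 0.22 (SE; edgeR adjusted p 0.0144). Gpx1, the widespread glutathione peroxidase, had a log2 fold change of 1.21 and Prdx6, which reduces peroxidized lipids, of 1.13 (edgeR adjusted p 0.0406 each). Gpx3, the gene that fell, was at 0 in both groups of duodenum replicate 1.

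Of 17 tested genes of glutathione synthesis and recycling none passed, with a median log2 fold change of 0.46. Of 27 tested genes of the Nrf2 pathway, 1 rose: Ftl1, the ferritin light chain, at 1.21 ± 0.19 (SE; edgeR adjusted p 0.0287). Of 19 tested genes of zinc, copper and iron transport none passed, and their median was -0.28. The calls of Prdx2, Gpx1, Prdx6 and Ftl1 were lost whenever any 1 plate was left out, with edgeR adjusted p values of 0.0516 to 0.178 and all 4 genes still higher in Chgb-low cells. Over all alternatives their adjusted p ran from 1.69e-09 (Prdx2, DESeq2) to 0.474 (Ftl1, edgeR without the plate as a block). No gene of these 5 lists passed in the comparisons of Neurog3-positive cells or of segments, in which edgeR called 0.00927% and 0.583% of all genes for Neurog3-positive cells.

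**Figure D5:**
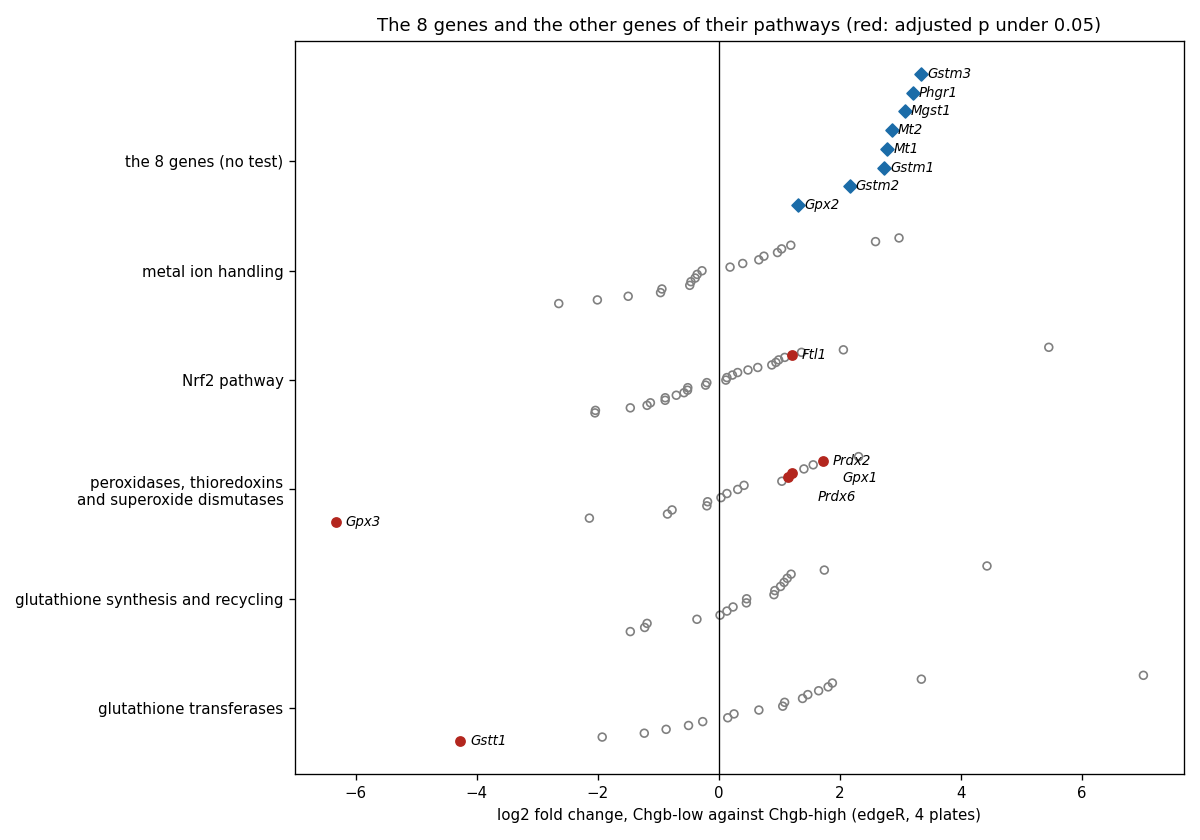
Log2 fold change between Chgb-low and Chgb-high cells for the 8 genes (diamonds, not tested) and for the other tested genes of 5 lists (circles; filled red where the edgeR adjusted p was under 0.05). The 8 genes lie between 1.32 and 3.35, while Gstt1 lies at -4.28. Medians of the circles are 0.86 for glutathione transferases and 0.46 for glutathione synthesis and recycling. They are 0.31 for the peroxidase list, 0.12 for the Nrf2 pathway and -0.28 for metal transport.

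Reads could be shared between some of these genes. Of the 50-base windows in the longest coding transcript, 23.15% for Gstm1, 9.36% for Gstm2 and 28.8% for Gstm3 also occur in another gene, so the split of reads among the Gstm genes and their relatives is uncertain. For Gpx2 the share was 18.9%, and Mgst1, Mt1, Mt2 and Phgr1 shared no window. Gsta1 and Gsta2, common intestinal transferases, were not analysed here.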

How the data were processed

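The deposited table holds counts per gene and cell; per the submitters' processing notes, bcl2fastq 2.17.1.14, cutadapt 1.10, Bowtie2 2.2.8, STAR 2.5.3a, UMI-tools 0.4.4, HTSeq 0.6.1 and the mm10 build were used, and no source used here says whether each count is a molecule. The labels name 92 sorted cells per plate, 368 in all, and 290 are in the table, with 202711 to 2312044 counts per cell and 23893272 to 46490618 per plate; 41 well names recur in all 4 plates, as plate positions. Of 29161 genes, 29120 were paired with a symbol.

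Counts were summed per plate and cell group, and plates are the replicates. Tests used edgeR 4.0.16 (quasi-likelihood, TMM, filterByExpr, plate as a block, Benjamini-Hochberg adjustment over all genes tested, threshold 0.05). The fit was also run on simulated counts with the same dispersion for all genes and no plate differences beyond depth. That run does not show how the fit performs on sums of single cells. DESeq2 1.42.0 and limma 3.58.1 (log2(CPM + 1)) were alternatives, with other Chgb and Neurog3 limits, thinning to 100000 counts and single plates left out. The genes named are the 8 chosen genes, up to 4 called genes per direction of each list that moved the same way in every plate, and the 8 most like genes; Gpx3 was named outside that rule. These genes and the lists were chosen with earlier results of these data known.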

Additional observations from a re-analysis of the deposited data

Results flagged for a closer look

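In 24 sets of 4 plate values (8 genes in Chgb-low, Chgb-high and Neurog3-positive cells), 2 sets had a plate far from the other 3, and chance gives about 1 in 20 such sets. Gstm3 was at 0.316 CPM in the Chgb-high cells of duodenum replicate 1, from 3 counts in 26 cells, against 37.3 to 43.5 CPM in the other plates. Mgst1 was at 35.2 CPM in the Neurog3-positive cells of duodenum replicate 3, which held 24 of the 50 such cells, and had no count in those of the other plates.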

How the results depend on the processing

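All 8 genes stayed higher in Chgb-low than in Chgb-high cells under each of 14 alternatives. Counts of called genes moved more. For Chgb-low against Chgb-high, edgeR called 515 genes, and DESeq2 called 2523. A single Chgb limit of 5000 CPM gave 304, leaving out goblet- and Paneth-rich cells 162, and weighting cells alike 83. Leaving out 1 plate gave 11 to 249 (13 without duodenum replicate 1, 11 without replicate 2, 62 without replicate 3 and 249 without the jejunum). For Neurog3-positive against other Chgb-low cells, edgeR called 1 gene, DESeq2 497, edgeR without the low-count filter 4 and after thinning 8. Weighting cells alike, taking out the hormone genes or a Neurog3 limit of 20 counts each gave 0, and leaving out 1 plate 0 to 2. Against Chgb-high cells, 64 genes were called by edgeR and 950 by DESeq2, and 0 with cells weighted alike, with the limit of 20 counts or without any 1 plate. Between segments, edgeR called 0, DESeq2 1172, edgeR without the filter 158, and 0 to 9 were called without 1 plate (9 without duodenum replicate 2 and 2 without replicate 3). The cause of these shifts was not tested.

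Without the plate as a block, edgeR called 360 genes for Chgb-low against Chgb-high cells, 6 for Neurog3-positive against other Chgb-low cells and 0 against Chgb-high cells. Pairing here means that both cell groups come from 1 plate.

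Some directions turned in the comparisons of Neurog3-positive cells and of segments. Against other Chgb-low cells, the log2 fold change of Gpx2 was 0.13 without duodenum replicate 1, 0.39 without marker-rich cells, 0.10 with cells weighted alike and 0.20 at the limit of 20 counts; without 1 plate it ran from -0.28 to 0.13. Gstm2 was at 0.18 with a Neurog3 limit of 1 count, against -1.33 at 5 counts. Mt1 was at 0.019 at 20 counts, and Mt2 at 0.040 without duodenum replicate 1, 0.039 at 1 count and 0.31 at 20 counts, with -1.20 to 0.040 without 1 plate. Against Chgb-high cells, Gstm3 was at -0.059 at 20 counts, against 2.53 at 5 counts. Mgst1, with no count in 3 plates of Neurog3-positive cells, was at 2.42 at 1 count, and its value at 5 counts (-5.52) depends on the prior count. Between segments, Mt2 was at -0.055 over all cells. Detection at 1 count, and Mgst1 throughout, are limited by depth.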
